A study of Arabidopsis thaliana with 15 samples.

Results

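The 29 Aux/IAA genes and 7 GH3 genes of Arabidopsis thaliana, 36 of 32678 named genes, were followed in whole seedlings given a strigolactone analogue. They were taken from the deposited expression table by their gene identifiers. The Aux/IAA genes were taken as a whole family. The GH3 genes were only the 7 members GH3.1 to GH3.6 and GH3.17, and 4 other GH3 genes are counted apart below. Seedlings were wild type of the Col ecotype, 10 days old, and were first kept for 2 h in liquid medium. They then received 5 µM GR24 4DO (written GR244DO in the sample labels), a synthetic strigolactone, or solvent alone. Solvent seedlings were sampled at 0 h, 2 h and 4 h and treated ones at 2 h and 4 h, which made 5 groups of 3 libraries each. The labels do not say whether the 3 libraries of a group came from separate cultures, so each p-value measures the spread between these libraries only.

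Aux/IAA proteins are short-lived nuclear repressors of auxin signalling. They bind the ARF transcription factors on auxin-responsive promoters and recruit TOPLESS co-repressors. Auxin joins them to the TIR1/AFB receptors, which sends them to the proteasome. Many Aux/IAA genes are themselves switched on by auxin, which closes a negative feedback loop. GH3 enzymes of the group studied here attach amino acids to indole-3-acetic acid, the main natural auxin, and so take it out of the active pool, and several GH3 genes are likewise early auxin-induced genes. Strigolactones, the hormones that GR24 4DO imitates, restrain shoot branching and act on the transport of auxin in the stem.

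Values are RPKM, which scales the reads of a gene by its length and by the assigned reads of the library. Libraries held 24.4 to 37.4 M assigned reads (1 M is 1e6), and 3 reads in a gene of 1 kb corresponded to 0.0801 to 0.123 RPKM. Root and shoot markers were both present. Summed over 9 root genes, the level was 70.4 to 78.2 RPKM in solvent at 0 h and 2 h, and 80.1 to 90.2 RPKM in solvent at 4 h and in the GR24 4DO libraries. Summed over 9 shoot genes, it was 27811 to 33066 RPKM in solvent at 0 h, 21486 to 22512 in solvent at 2 h and 14843 to 16853 in solvent at 4 h. With GR24 4DO the shoot sum was 18905 to 20427 at 2 h and 15631 to 17934 at 4 h, and the shoot meristem genes WUS and CLV3 were at or near 0. Nearly all of this sum came from the photosynthesis genes LHCB1.3, RBCS1A and LHCA1, whose means in solvent were 14061, 15080 and 2107 RPKM at 0 h, and 5740, 9805 and 326 at 4 h. The mean of AS1, by contrast, was 36.1 RPKM at 0 h and 61 at 4 h, and those of STM, SPCH and FAMA were likewise higher at 4 h. Called markers with GR24 4DO were SPCH and FAMA, 2 of 7 tested shoot genes, higher at 2 h, and PIN2, 1 of 8 tested root genes, higher at 4 h. Over all genes 0.887% were called higher at 2 h and 4.69% at 4 h. The calls for SPCH and FAMA each ended in 11 of 19 alternative analyses, among them quantile normalization (adjusted p = 0.0684 and 0.0705) and median-of-ratios scaling (0.101 and 0.0802), while that for PIN2 held in all 18. In solvent from 0 h to 2 h 1 root gene rose and 1 fell, and 3 shoot genes rose and 3 fell. Over all genes 19% were called higher and 9.66% lower. From 2 h to 4 h 3 root genes rose, 1 shoot gene rose and 2 fell, beside 11.8% higher and 9.5% lower. SPCH lost its call from 0 h to 2 h in 7 of 18 alternatives. From 2 h to 4 h COBL9 lost it in 5 of 18 and SCR in 10 of 18. With quantile normalization LHCB1.3 and RBCS1A were not called from 0 h to 2 h, nor LHCB1.3 from 2 h to 4 h. In such bulk RNA, fewer cells of a type and less RNA per cell cannot be told apart, and the part of tissue makeup in the results below was not tested. In 3 groups 1 pair of libraries was closer to sampling noise than the other pairs (solvent at 2 h, replicates 2 and 3; solvent at 4 h, replicates 1 and 3; GR24 4DO at 4 h, replicates 1 and 2). No 2 libraries held identical values.

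The Aux/IAA genes spanned more than 2 orders of magnitude in level. IAA9 (AT5G65670) was the most abundant in every library, at 247, 224 and 215 RPKM in solvent at 0 h, 253, 233 and 238 at 2 h and 248, 257 and 253 at 4 h, against 238, 226 and 225 with GR24 4DO at 2 h and 234, 226 and 227 at 4 h. It alone made up 34.6% of the summed Aux/IAA level on average (28.1 to 38.1% over the 15 libraries). IAA16 (AT3G04730) followed with 12.2%, then IAA7 (AT3G23050) with 8.47% and IAA8 (AT2G22670) with 7.74%. These 4 genes averaged at least 50 RPKM. Another 10 averaged 10 to 50 RPKM, among them IAA17 (AXR3) and IAA28, which are known from dominant mutants with altered roots. A further 8 averaged 1 to 10 RPKM, including IAA19 (MSG2, known from hypocotyl bending) and IAA29. The remaining 7, IAA6, IAA15, IAA20 and IAA31 to IAA34, averaged under 1 RPKM. IAA20, IAA30 and IAA32 to IAA34, whose proteins lack the usual degron through which auxin triggers degradation, were thus all in the lower part of this order.

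Of the 29 Aux/IAA genes, 25 reached 1 RPKM in at least 3 libraries and were tested. IAA6, IAA15, IAA20 and IAA34 did not, and rested on 1 to 21, 0 to 3, 1 to 13 and 0 to 8 reads per library. The summed Aux/IAA level was 730 to 797 RPKM in solvent at 0 h, 673 to 729 at 2 h and 658 to 715 at 4 h. With GR24 4DO it was 656 to 673 RPKM at 2 h and 611 to 633 at 4 h. All 3 libraries with GR24 4DO at 4 h lay below the 3 solvent libraries of that time, while the ranges overlapped at 2 h.

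**Figure D1:**
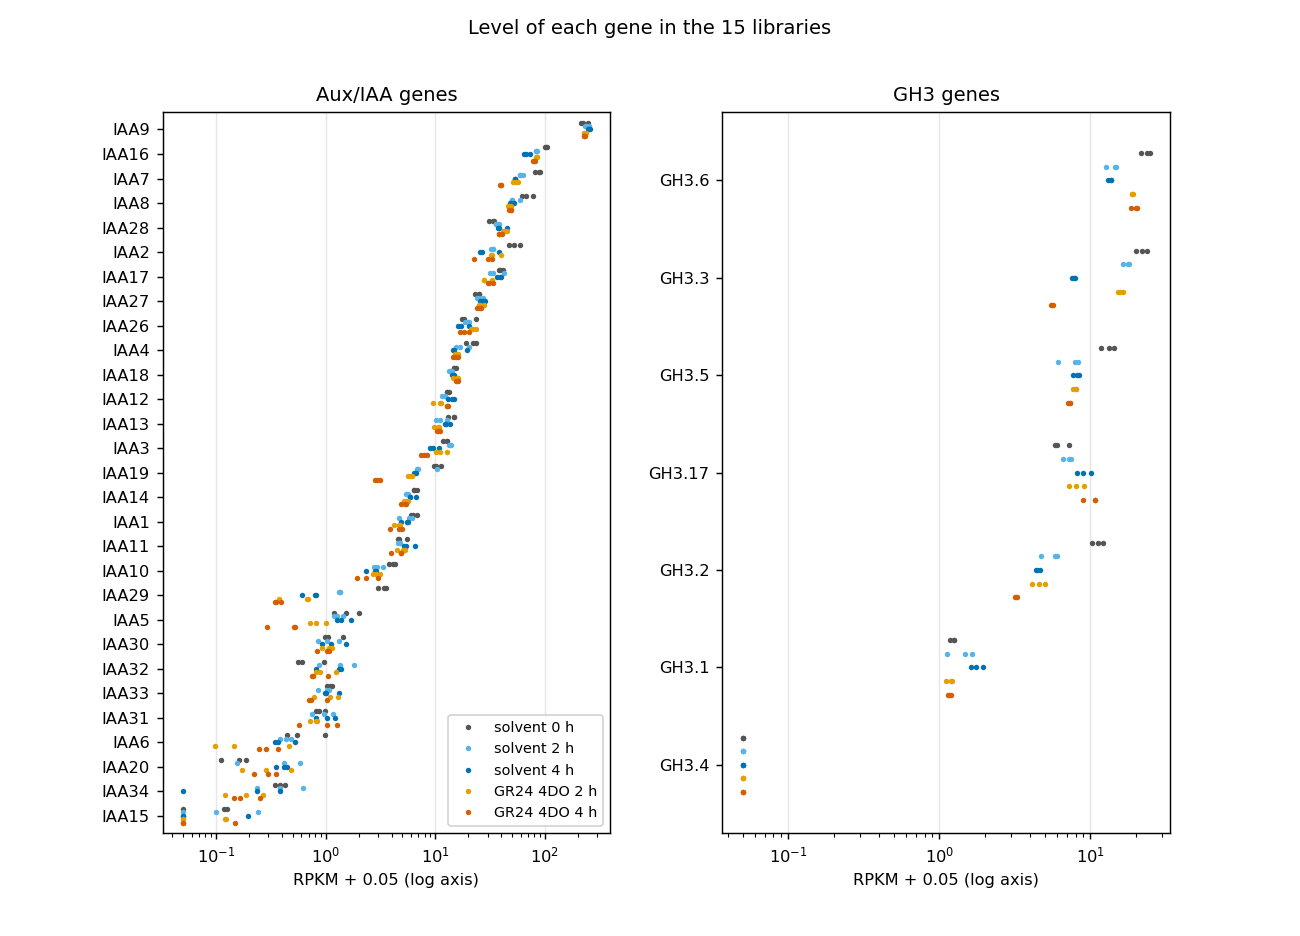
Level of each Aux/IAA and GH3 gene in the 15 libraries, in RPKM on a log axis after adding 0.05, with genes ordered by their mean and coloured by group. IAA9 heads the Aux/IAA genes and GH3.6 the GH3 genes, and GH3.4 is listed at 0 in every library.

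Among the GH3 genes, GH3.6 (AT5G54510, DFL1) and GH3.3 (AT2G23170) were the most abundant, with on average 32.6% and 23.7% of the summed GH3 level. GH3.5 (AT4G27260, WES1) held 15.7%, GH3.17 (AT1G28130, VAS2) 15.6%, GH3.2 (AT4G37390) 9.94% and GH3.1 (AT2G14960) 2.48%. GH3.4 (AT1G59500) was listed at 0 in all 15 libraries, and the other 6 genes were tested. The summed GH3 level was 70.5 to 80.9 RPKM in solvent at 0 h, 47.5 to 55.5 at 2 h and 43.7 to 44.8 at 4 h. With GR24 4DO it was 55.9 to 56.7 RPKM at 2 h and 44.8 to 48.1 at 4 h. The order of the first pair changed between groups: GH3.3 made up 33.1% and GH3.6 26.5% of the sum in solvent at 2 h, against 11.8% and 42.0% with GR24 4DO at 4 h.

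Promoters are shown for the 9 members called with GR24 4DO at 2 h or 4 h, IAA16 and GH3.6 higher and the other 7 lower. Each window runs from 250 bases before to 50 bases after the annotated gene start in TAIR10.1 (RefSeq), 5′ to 3′ on the gene's strand. Capitals mark matches on either strand to TGTCTC or TGTCGG, elements that ARF factors bind, and to CACGTG or CACATG, elements that PIF and other factors bind. IAA5 lies at chr1:5366448-5366747, minus strand, IAA19 at chr3:5263751-5264050, plus strand and GH3.3 at chr2:9866513-9866812, minus strand. IAA7 lies at chr3:8194356-8194655, plus strand, IAA29 at chr4:15583082-15583381, plus strand and GH3.6 at chr5:22133639-22133938, minus strand. IAA16 lies at chr3:1290842-1291141, minus strand, GH3.1 at chr2:6453748-6454047, minus strand and GH3.2 at chr4:17579368-17579667, plus strand.
IAA5: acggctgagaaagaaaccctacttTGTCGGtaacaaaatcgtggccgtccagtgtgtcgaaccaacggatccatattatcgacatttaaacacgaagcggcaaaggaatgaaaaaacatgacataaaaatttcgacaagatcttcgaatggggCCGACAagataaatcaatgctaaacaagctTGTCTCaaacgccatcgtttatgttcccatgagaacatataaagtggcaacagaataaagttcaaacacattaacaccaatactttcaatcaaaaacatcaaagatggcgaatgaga
IAA19: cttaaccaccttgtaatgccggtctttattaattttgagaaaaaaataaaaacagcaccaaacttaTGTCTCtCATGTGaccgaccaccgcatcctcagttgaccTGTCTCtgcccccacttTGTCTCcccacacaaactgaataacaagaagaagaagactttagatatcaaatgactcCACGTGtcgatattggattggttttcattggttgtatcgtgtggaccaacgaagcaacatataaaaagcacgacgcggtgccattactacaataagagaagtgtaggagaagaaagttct
GH3.3: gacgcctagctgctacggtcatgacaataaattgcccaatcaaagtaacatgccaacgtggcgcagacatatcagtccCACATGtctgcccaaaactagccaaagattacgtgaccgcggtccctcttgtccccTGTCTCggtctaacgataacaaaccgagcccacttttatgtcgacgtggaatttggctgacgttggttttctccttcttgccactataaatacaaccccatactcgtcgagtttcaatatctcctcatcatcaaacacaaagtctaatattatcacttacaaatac
IAA7: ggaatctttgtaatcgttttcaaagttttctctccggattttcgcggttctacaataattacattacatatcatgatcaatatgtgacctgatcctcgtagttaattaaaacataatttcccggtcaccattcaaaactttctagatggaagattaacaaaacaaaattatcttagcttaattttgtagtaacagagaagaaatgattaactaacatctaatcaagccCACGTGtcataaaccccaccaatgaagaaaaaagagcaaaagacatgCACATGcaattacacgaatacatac
IAA29: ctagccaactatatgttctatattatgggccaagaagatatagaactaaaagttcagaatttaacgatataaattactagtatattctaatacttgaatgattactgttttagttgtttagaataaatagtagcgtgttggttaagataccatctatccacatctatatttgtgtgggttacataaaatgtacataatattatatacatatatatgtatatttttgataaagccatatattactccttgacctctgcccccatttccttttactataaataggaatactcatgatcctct
GH3.6: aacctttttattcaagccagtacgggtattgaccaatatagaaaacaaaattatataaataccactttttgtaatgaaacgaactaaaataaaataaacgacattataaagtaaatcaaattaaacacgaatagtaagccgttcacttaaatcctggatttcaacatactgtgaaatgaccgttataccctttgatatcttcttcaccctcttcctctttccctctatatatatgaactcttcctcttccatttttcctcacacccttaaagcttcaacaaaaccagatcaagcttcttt
IAA16: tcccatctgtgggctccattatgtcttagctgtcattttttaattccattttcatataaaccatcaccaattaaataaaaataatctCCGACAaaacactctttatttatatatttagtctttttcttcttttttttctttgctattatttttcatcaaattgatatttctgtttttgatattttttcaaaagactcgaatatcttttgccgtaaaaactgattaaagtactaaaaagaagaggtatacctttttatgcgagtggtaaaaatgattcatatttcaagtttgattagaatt
GH3.1: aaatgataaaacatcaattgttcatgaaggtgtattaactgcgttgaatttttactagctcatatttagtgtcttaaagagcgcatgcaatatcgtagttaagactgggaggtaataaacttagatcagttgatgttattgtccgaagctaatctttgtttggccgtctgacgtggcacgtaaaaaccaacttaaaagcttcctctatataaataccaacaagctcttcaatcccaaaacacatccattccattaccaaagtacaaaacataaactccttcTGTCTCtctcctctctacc
GH3.2: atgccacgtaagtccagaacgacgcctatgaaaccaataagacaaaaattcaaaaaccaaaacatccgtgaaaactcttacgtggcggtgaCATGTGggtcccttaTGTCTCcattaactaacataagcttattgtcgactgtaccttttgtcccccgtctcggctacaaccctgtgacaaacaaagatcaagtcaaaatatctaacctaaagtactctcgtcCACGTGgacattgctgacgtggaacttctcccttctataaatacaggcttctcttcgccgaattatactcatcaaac

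In these windows IAA5 held both TGTCTC and TGTCGG, IAA19 held TGTCTC at 3 places, and GH3.1, GH3.2 and GH3.3 held 1 TGTCTC each, that of GH3.1 after the gene start. IAA16 held 1 TGTCGG, on the reverse strand. IAA7 and GH3.2 held CACGTG and CACATG, as did IAA19, and GH3.3 held CACATG, while the windows of IAA29 and GH3.6 held none of the 4 elements. No printed matches overlapped one another. Over the families, TGTCTC was in 12 of 29 Aux/IAA windows (41.4%) and in 4 of 7 GH3 windows (57.1%: GH3.1, GH3.2, GH3.3 and GH3.5), against 14.2% of 27443 windows of protein-coding genes. TGTCGG was in 6 of 29 Aux/IAA windows (20.7%) and in none of the 7 GH3 windows, against 5.12% of all. CACGTG was in 5 Aux/IAA windows (17.2%) and 1 GH3 window (14.3%), against 7.68%, and CACATG in 7 (24.1%) and 3 (42.9%), against 12.9%. The shorter core TGTCNN, which contains the first pair, was in 86.2% of Aux/IAA windows and 100% of GH3 windows, against 81.3% of all. These matches describe the letters of the windows only.

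After 2 h of GR24 4DO, 1 Aux/IAA gene, IAA29 (AT4G32280), was lower than in solvent. IAA29 is known as a gene that PIF factors induce in shade and warmth. It measured 1.3, 1.3 and 1.27 RPKM in the 3 solvent libraries and 0.326, 0.621 and 0.644 RPKM with GR24 4DO (32, 48 and 36 reads against 8, 16 and 16). The groups did not overlap. The means of 1.29 ± 0.018 and 0.53 ± 0.177 RPKM (SD, n = 3) gave a log2 difference of -0.59 (SE 0.10, adjusted p = 0.00455). Log2 differences and their tests are on the log2(RPKM + 1) scale, from limma with Benjamini-Hochberg adjustment over 19155 genes, and understate the change of low genes. Over all of these genes, 1.3% were called at 2 h, 0.887% higher and 0.412% lower. With quantile normalization the split was 0.632% higher and 0.773% lower, and with median-of-ratios scaling 0.522% and 0.538%. The call for IAA29 ended when only the compared groups were fitted (adjusted p = 0.0542) or the closest library pairs averaged (0.0547). For IAA29 only the solvent libraries of 0 h and 2 h reached the filter's 1 RPKM. The gene was thus tested through groups where it was high.

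The other 24 Aux/IAA genes tested were not called at 2 h, with log2 differences between -0.37 and 0.24. By unadjusted p under 0.05, 2 Aux/IAA genes were higher and 8 lower, while 18.3% of all genes passed that limit in either direction. In 7 of the 25 tested genes every treated library was below every solvent library, as in 6.89% of all genes, and in 3 every one was above, as in 19.3% of all genes. The median over the 25 genes was -0.12, beside 0.06 over all genes. Whether libraries with the same replicate number form pairs is not known, since their residuals correlated at only 0.179, 0.133 and 0.101 at this time. With the replicate as a block in the fit of all 15 libraries 2 more genes were called. They were IAA19, -0.37 (adjusted p = 0.048), and IAA28, 0.24 (adjusted p = 0.0458). When only the 6 libraries sampled at 2 h were fitted with this block, neither was called (0.0891 and 0.0905), and IAA29 was (0.0486). IAA19 measured 10.4, 6.86 and 6.75 RPKM in solvent and 6.15, 5.58 and 5.79 RPKM with GR24 4DO, and IAA28 measured 38.3, 35.5 and 36 RPKM in solvent and 41.8, 45.4 and 43 RPKM with GR24 4DO. Neither gene's groups overlapped, although solvent replicate 1 stood apart for IAA19.

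GH3.6 was the GH3 gene called at 2 h of the 6 tested, and it was higher with GR24 4DO, as were 0.887% of all genes. Overexpression of GH3.6 is known to dwarf shoots. It measured 12.6, 14.7 and 14.5 RPKM in solvent and 19, 18.8 and 18.9 RPKM with GR24 4DO. All treated libraries lay above all solvent libraries, and the means were 14 ± 1.14 and 18.9 ± 0.102 RPKM (SD, n = 3), 1.36 times as high. The log2 difference was 0.42 (SE 0.07, adjusted p = 0.00455), and it stayed called in all 19 alternative analyses. The other 5 GH3 genes tested were not called, with log2 differences between -0.22 and 0.17.

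At 4 h, 5 of the 25 Aux/IAA genes were called, 1 higher and 4 lower, where 8.93% of all genes were called, 4.69% higher and 4.23% lower. Limma-voom on recovered reads also called 5, where it called 9.18% of all genes. The genes that fell were IAA19, IAA5, IAA7 and IAA29, and IAA16 rose. The median over the 25 genes was -0.14, beside 0.02 over all genes, and 22 of the 25 differences were below 0. By unadjusted p under 0.05, 1 was higher and 11 lower, against 24.1% of all genes in either direction. In 10 Aux/IAA genes every GR24 4DO library was below every solvent library, as in 16% of all genes, and in 2 every one was above, as in 17.5% of all genes.

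IAA19 (AT3G15540), which acts with ARF7 in hypocotyl bending, had the largest Aux/IAA difference at 4 h on the log2(RPKM + 1) scale, whereas the ratio of mean RPKM was larger for IAA5. It measured 6.51, 6.35 and 6.63 RPKM in solvent and 2.78, 3.11 and 2.9 RPKM with GR24 4DO. The groups were far apart relative to their spread: the means of 6.5 ± 0.14 and 2.93 ± 0.168 RPKM (SD, n = 3) differed 2.22-fold. The log2 difference was -0.93 (SE 0.12, adjusted p = 6.74e-05).

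IAA5 (AT1G15580), an early auxin-induced gene, was scarce, with 1.67, 1.22 and 1.33 RPKM in solvent and 0.242, 0.47 and 0.474 RPKM with GR24 4DO at 4 h. These values rested on 28, 22 and 21 reads against 4, 9 and 11. The groups did not overlap, and the mean fell from 1.4 ± 0.233 to 0.395 ± 0.133 RPKM (SD, n = 3), 3.55-fold lower. The log2 difference was -0.79 (SE 0.12, adjusted p = 0.000483). At 2 h the gene had measured 1.22, 1.15 and 1.39 RPKM in solvent and 0.77, 0.672 and 0.951 with GR24 4DO, groups that did not overlap either but were not called (-0.33, adjusted p = 0.185). IAA5 reached the filter's 1 RPKM in every solvent library and in none with GR24 4DO. It was thus tested through the groups where it was high.

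IAA7 (AXR2), whose dominant mutant resists auxin, was abundant and tight between replicates. It measured 53.6, 53.6 and 53.4 RPKM in solvent at 4 h and 39.8, 39.9 and 38.9 RPKM with GR24 4DO. All treated libraries were lower by more than the spread of either group, and the log2 difference was -0.43 (SE 0.05, adjusted p = 8.42e-05). At 2 h it measured 63.4, 59.8 and 59.3 RPKM in solvent and 56.5, 51.7 and 54.6 RPKM with GR24 4DO, with no call (-0.16, adjusted p = 0.158). The calls for IAA19, IAA5 and IAA7 at 4 h held in every alternative analysis run.

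IAA29 at 4 h was low in both groups, with 0.756, 0.563 and 0.763 RPKM in solvent and 0.345, 0.298 and 0.301 RPKM with GR24 4DO (20, 16 and 19 reads against 9, 9 and 11). The groups did not overlap and the log2 difference was -0.36 (SE 0.10, adjusted p = 0.0254). Its call ended without solvent replicate 1 (adjusted p = 0.104) or 3 (0.106), without GR24 4DO replicate 1 (0.067), 2 (0.0902) or 3 (0.0568), and with the closest pairs averaged (0.27).

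IAA16, the second most abundant member, was the Aux/IAA gene that rose at 4 h. It measured 64.8, 73.7 and 67.8 RPKM in solvent and 79.4, 80.6 and 78.1 RPKM with GR24 4DO, without overlap, and the log2 difference was 0.21 (SE 0.05, adjusted p = 0.0195). At 2 h the values were 82.4, 83.7 and 84.4 RPKM in solvent and 84.8, 82.7 and 84.3 RPKM with GR24 4DO. From 2 h to 4 h the mean thus went from 83.5 to 68.7 RPKM in solvent and from 83.9 to 79.3 RPKM with GR24 4DO. The change over time in treated seedlings was not tested. Its call at 4 h ended without solvent replicate 1 (adjusted p = 0.12) or 3 (0.0841), without GR24 4DO replicate 1 (0.0748) or 2 (0.0891), with median-of-ratios scaling (0.0534) and with the closest pairs averaged (0.33).

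The other 20 Aux/IAA genes tested at 4 h had log2 differences between -0.28 and 0.12 and were not called. Nearest to the threshold were IAA3 (AT1G04240, SHY2, a regulator of root meristem size) at -0.27 (adjusted p = 0.0566), IAA13 at -0.24 (adjusted p = 0.0666) and IAA17 at -0.28 (adjusted p = 0.0736). IAA3 measured 9.42, 10.7 and 8.93 RPKM in solvent and 7.83, 8.32 and 7.38 RPKM with GR24 4DO, without overlap. It was called lower in 5 of 18 alternatives, IAA13 in 3 of 18 and IAA17 in 2 of 18. IAA11, at -0.28 (adjusted p = 0.0967), was also called lower in 3 of 18. For IAA3 these included quantile normalization (adjusted p = 0.0159), median-of-ratios scaling (0.0184) and the filter at 5 RPKM (0.0489). IAA9 measured 253 ± 4.65 and 229 ± 4.26 RPKM (SD, n = 3), again without overlap, and was not called (-0.14, adjusted p = 0.133).

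**Figure D2:**
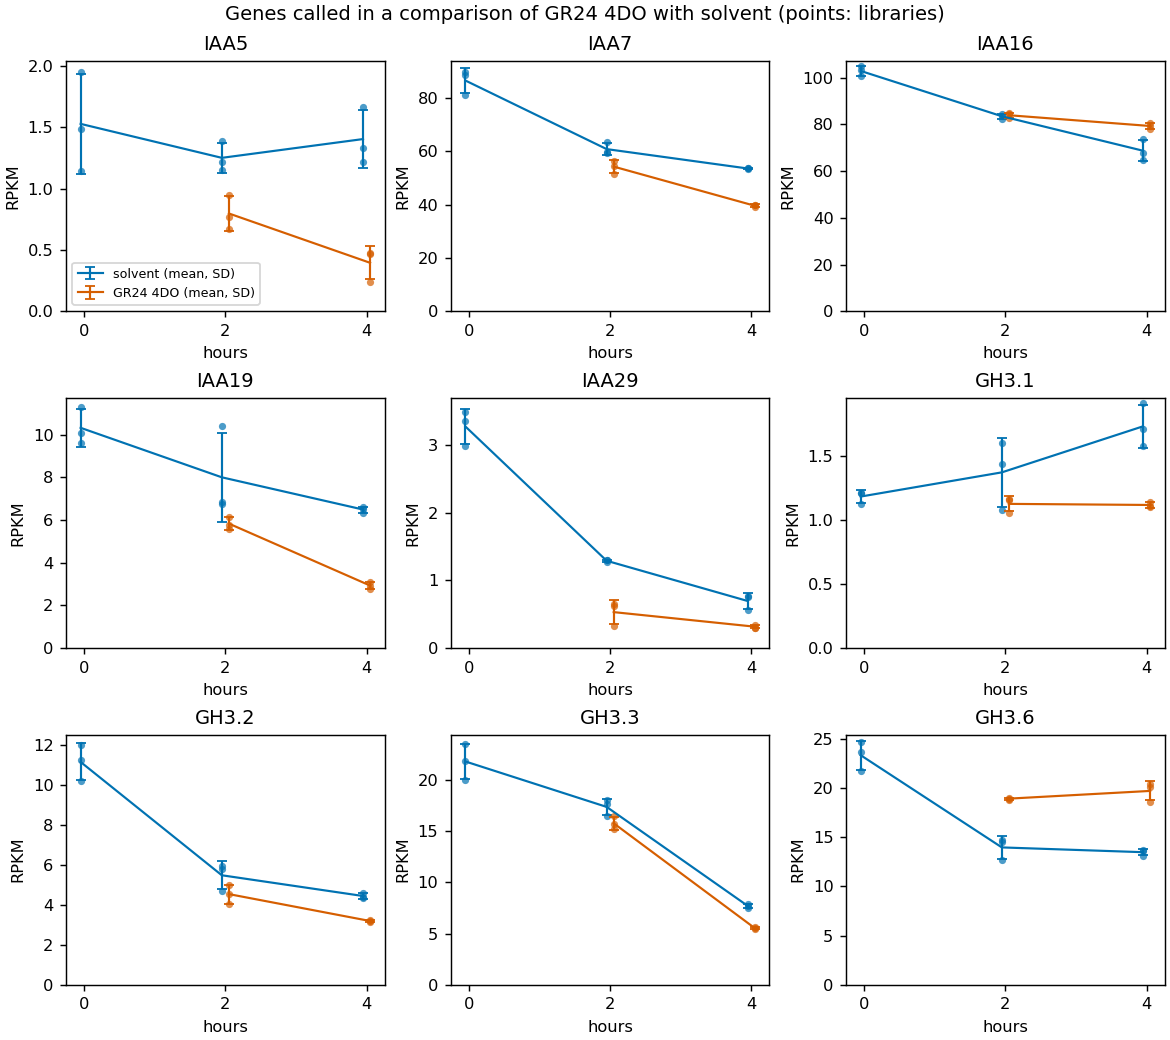
RPKM of the members called in a GR24 4DO contrast, by time in hours, with 1 point per library and a line through the mean of each group, and its SD as a bar, for solvent and for GR24 4DO. IAA19, IAA5, IAA7 and GH3.3 with GR24 4DO lie below every solvent library at 4 h, whereas GH3.6 lies above solvent at both times.

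Of the 6 GH3 genes tested, 4 were called at 4 h: GH3.6 rose, and GH3.1, GH3.2 and GH3.3 fell, beside 4.69% of all genes higher and 4.23% lower. GH3.6 measured 13.1, 13.7 and 13.6 RPKM in solvent and 20.1, 20.4 and 18.6 RPKM with GR24 4DO. Its treated libraries were all above solvent, the means of 13.5 ± 0.31 and 19.7 ± 0.96 RPKM (SD, n = 3) gave a ratio of 1.46, and the log2 difference was 0.52 (SE 0.07, adjusted p = 0.000112).

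GH3.3, which together with GH3.5 and GH3.6 is known from adventitious rooting, went the other way, from 7.89, 7.46 and 7.74 RPKM in solvent to 5.46, 5.5 and 5.6 RPKM with GR24 4DO. The groups were well apart, with a log2 difference of -0.42 (SE 0.07, adjusted p = 0.000748). GH3.2 measured 4.59, 4.34 and 4.36 RPKM in solvent and 3.169, 3.14 and 3.24 with GR24 4DO, with a log2 difference of -0.38 (SE 0.09, adjusted p = 0.015). GH3.1 measured 1.71, 1.57 and 1.91 RPKM in solvent and 1.14, 1.1 and 1.1 with GR24 4DO, with a log2 difference of -0.37 (SE 0.09, adjusted p = 0.0175). In all 3 genes every treated library was below every solvent library.

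The calls for GH3.3 and GH3.6 held in every alternative run, and those for GH3.1 and GH3.2 did not. GH3.1 lost its call without solvent replicate 1 (adjusted p = 0.0576) or 3 (0.0937), without GR24 4DO replicate 1 (0.0557) or 2 (0.0662), and with the closest pairs averaged (0.186). GH3.2 lost it without solvent replicate 1 (0.0682), without GR24 4DO replicate 1 (0.0576) or 2 (0.0587), and with the pairs averaged (0.178). GH3.5 at -0.13 (adjusted p = 0.41) and GH3.17, which prefers glutamate as its amino acid, at 0.15 (adjusted p = 0.412) were not called.

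**Figure D3:**
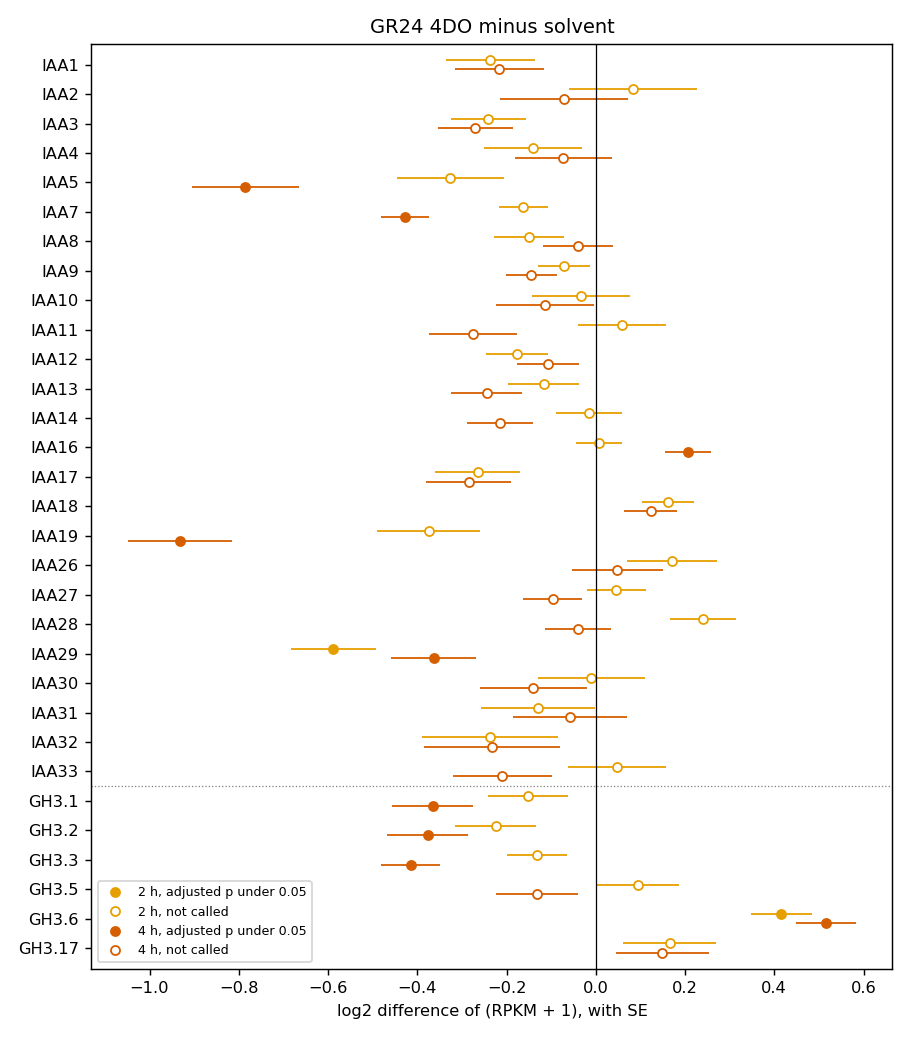
Log2 difference of GR24 4DO against solvent, on the log2(RPKM + 1) scale, at 2 h and at 4 h for each tested Aux/IAA and GH3 gene, with the standard error as a bar and called genes filled. At 2 h the called genes are IAA29, lower, and GH3.6, higher; at 4 h 4 Aux/IAA and 3 GH3 genes are lower and IAA16 and GH3.6 higher.

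Whether the response at 4 h differed from that at 2 h was tested as the difference of the 2 log2 differences. No Aux/IAA gene and no GH3 gene was called by limma or by limma-voom on recovered reads, which called 1.72% of all genes (0.961% higher, 0.757% lower) and 1.55% in that order. With quantile normalization the split was 1.14% higher and 0.59% lower. By unadjusted p under 0.05, 6 Aux/IAA genes passed, 5 of them lower at 4 h, and 1 GH3 gene, lower, beside 11.1% of all genes. The largest Aux/IAA difference of responses was that of IAA19, -0.56 (SE 0.16, adjusted p = 0.127), which was called without solvent 2 h replicate 1 (-0.74, adjusted p = 0.00219). IAA5 differed by -0.46 (adjusted p = 0.273), IAA7 by -0.27 (adjusted p = 0.119) and IAA29 by 0.22 (adjusted p = 0.62). For GH3.3 the value was -0.28 (adjusted p = 0.199) and for GH3.6 0.10 (adjusted p = 0.821). The members called at 4 h and not at 2 h are therefore not shown to respond differently at the 2 times.

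Both families also changed in solvent alone. From 0 h to 2 h, 10 of the 25 Aux/IAA genes were called, 1 higher and 9 lower, where 28.7% of all genes were called, 19% higher and 9.66% lower. With quantile normalization the split over all genes was 13.4% higher and 13.2% lower, and with median-of-ratios scaling 11.5% and 13.6%. IAA2, IAA7, IAA8, IAA10, IAA13, IAA14, IAA16, IAA19 and IAA29 fell, and IAA32 rose. Limma-voom called 10, the same 9 lower genes and IAA4 (adjusted p = 0.0453) in place of IAA32, where it called 29.7% of all genes, and by unadjusted p under 0.05 there were 12, beside 39.4% of all genes. The median over the 25 genes was -0.14, beside 0.07 over all genes. This comparison shares its solvent 2 h libraries with the GR24 4DO comparison at 2 h.

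IAA29 fell the most of the Aux/IAA genes, from 3.36, 2.98 and 3.48 RPKM at 0 h to the 1.29 ± 0.018 RPKM (SD, n = 3) of 2 h given above, a log2 difference of -0.90 (SE 0.10, adjusted p = 3.27e-06). IAA2 (AT3G23030) went from 52.2, 59.4 and 47.4 to 33.3, 33.8 and 31.9 RPKM, -0.66 (SE 0.14, adjusted p = 0.00247). IAA7 went from 89.8, 88.7 and 81.2 to 63.4, 59.8 and 59.3 RPKM, -0.50 (SE 0.05, adjusted p = 4.03e-06). In each of the 3 genes all libraries of 2 h were below all of 0 h, as in 12.4% of all genes. IAA8 (-0.37, adjusted p = 0.00239) and IAA16 (-0.30, adjusted p = 0.000421) likewise fell, and these 5 calls held in every alternative run.

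The other Aux/IAA calls at 2 h of solvent were less firm. IAA13 (-0.31, adjusted p = 0.00807), IAA10 (-0.34, adjusted p = 0.0279), IAA19 (-0.35, adjusted p = 0.0321) and IAA14 (-0.22, adjusted p = 0.0371) fell. IAA32 (AT2G01200), one of the members without the usual degron, measured 0.556, 0.516 and 0.926 RPKM at 0 h and 1.75, 0.826 and 1.32 at 2 h, with overlapping groups (0.45, adjusted p = 0.0348). IAA13 was not called without solvent 2 h replicate 3 (adjusted p = 0.0503), and IAA10 was not called without solvent 2 h replicate 1 (0.0837) or 3 (0.0727) or solvent 0 h replicate 1 (0.092) or 2 (0.0554). IAA19 was not called without solvent 2 h replicate 2 (0.152) or 3 (0.157) or solvent 0 h replicate 1 (0.124). For IAA14 this was so when any 1 of the 3 solvent 2 h libraries or of solvent 0 h replicates 1 and 3 was left out (0.0597 to 0.115), and for IAA32 with solvent 2 h replicate 1 or 3 or solvent 0 h replicate 1 or 2 left out (0.0908 to 0.145). IAA32 was also not called with quantile normalization (0.0823), median-of-ratios scaling (0.0592), no filter (0.0566) or limma-voom (0.0597), 9 of its 16 alternatives in all. IAA13, IAA14 and IAA19 were also not called with only the compared groups or with the closest pairs averaged (0.053 to 0.201), nor was IAA19 with no filter (0.0603). The other 15 Aux/IAA genes tested were not called, with log2 differences between -0.30 and 0.15. Of these, IAA4 (-0.30, adjusted p = 0.052) was called lower in 9 of 18 alternatives. They included quantile normalization (0.0143) and median-of-ratios scaling (0.01).

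Of the 6 GH3 genes tested, 4 fell from 0 h to 2 h of solvent and none was called higher, beside 9.66% of all genes lower (13.2% with quantile normalization and 13.6% with median-of-ratios scaling). GH3.2 went from 10.2, 12 and 11.2 to 4.67, 5.8 and 5.94 RPKM, -0.91 (SE 0.09, adjusted p = 1.57e-06). GH3.5 went from 11.7, 13.3 and 14.4 to 6.09, 7.81 and 8.18 RPKM, -0.76 (SE 0.09, adjusted p = 1.27e-05). GH3.6 went from 21.7, 23.6 and 24.6 to the 14 ± 1.14 RPKM (SD, n = 3) of 2 h, -0.70 (SE 0.07, adjusted p = 1.07e-06). In each of these every library of 2 h was below every one of 0 h, as in 12.4% of all genes. GH3.3 fell less, from 21.8 ± 1.73 to 17.4 ± 0.819 RPKM (SD, n = 3), -0.31 (adjusted p = 0.00238), and all 4 calls held in every alternative run. GH3.6 with GR24 4DO, at 18.9 ± 0.102 RPKM at 2 h and 19.7 ± 0.96 RPKM at 4 h (SD, n = 3), thus lay between the solvent levels of 0 h and of the matched time, although treated libraries were not tested against 0 h.

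**Figure D4:**
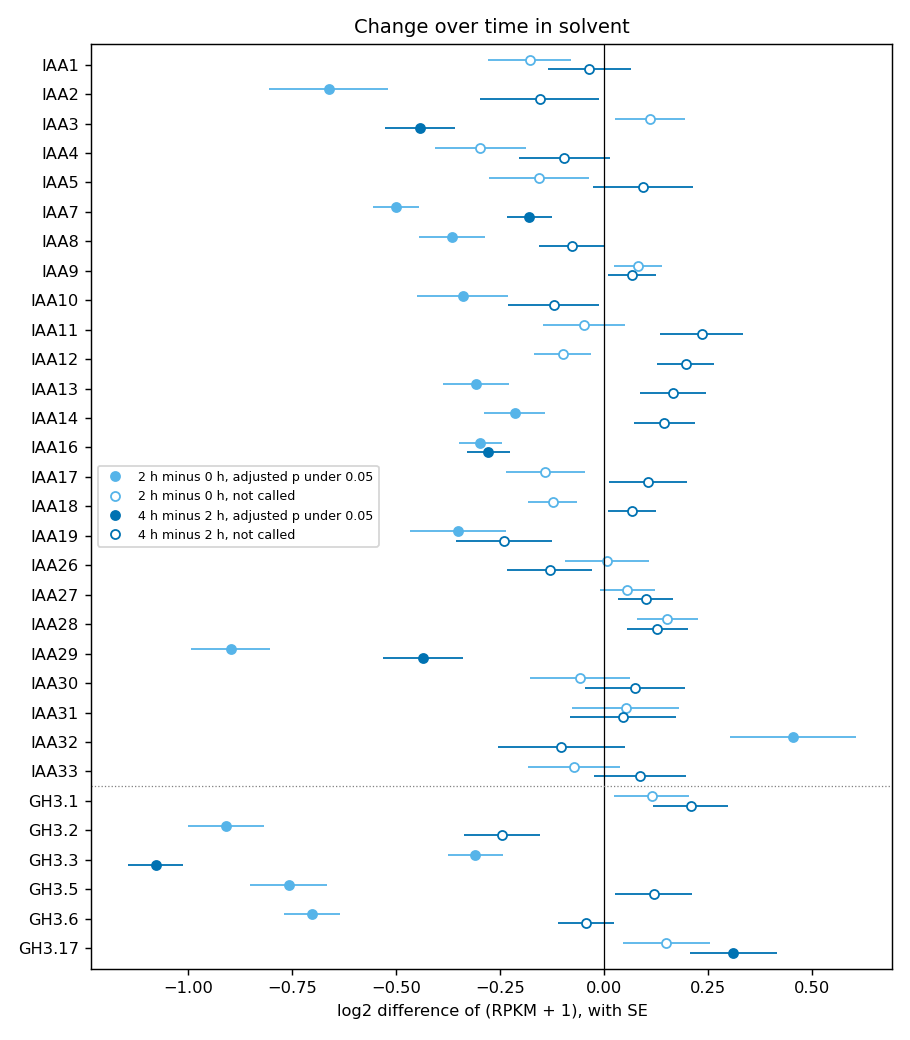
Log2 difference in solvent, on the log2(RPKM + 1) scale, for 2 h against 0 h and for 4 h against 2 h, for each tested Aux/IAA and GH3 gene, with the standard error as a bar and called genes filled. IAA29 and GH3.2 have the lowest values of their families for 2 h against 0 h, and GH3.3 the lowest for 4 h against 2 h.

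From 2 h to 4 h of solvent, 4 Aux/IAA genes fell and none was called higher, where 21.3% of all genes were called, 11.8% higher and 9.5% lower. IAA3 went from 13.8, 13.5 and 13.2 to 9.42, 10.7 and 8.93 RPKM, -0.44 (SE 0.08, adjusted p = 0.00141). IAA29 fell again, -0.44 (SE 0.10, adjusted p = 0.00404), and so did IAA16, -0.28 (SE 0.05, adjusted p = 0.00118), with the library values given above. In these 3 genes every library of 4 h was below every one of 2 h, as in 19.2% of all genes. Their calls held in every alternative run. IAA7 fell by a smaller amount, -0.18 (SE 0.05, adjusted p = 0.0271), and was not called when any 1 of solvent 2 h replicates 1 and 2 or of the 3 solvent 4 h libraries was left out (0.0537 to 0.079), nor with the closest pairs averaged (0.152). Its call also ended with median-of-ratios scaling (0.0595) and with only the compared groups (0.053), 8 of 18 alternatives in all. By unadjusted p under 0.05, 2 Aux/IAA genes were higher and 4 lower, beside 34.3% of all genes. The median over the 25 Aux/IAA genes was 0.05, beside -0.003 over all genes. These libraries are shared with both GR24 4DO comparisons.

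GH3.3 had the largest change of any member in this interval, from 16.5, 17.6 and 18 RPKM at 2 h to the 7.7 ± 0.217 RPKM (SD, n = 3) of 4 h, -1.08 (SE 0.07, adjusted p = 1.54e-08). The groups were far apart, and the call held in every alternative run. GH3.17 was higher, from 6.59, 7.18 and 7.42 to 8.06, 10.1 and 8.9 RPKM, 0.31 (SE 0.10, adjusted p = 0.0444). Its groups did not overlap, with 4 h above 2 h as in 20% of all genes. It was not called when any 1 of the 3 solvent 2 h libraries or of solvent 4 h replicates 2 and 3 was left out (0.062 to 0.15), nor with the closest pairs averaged (0.117). The GH3.17 call also ended with no filter (0.0748). GH3.1, GH3.2, GH3.5 and GH3.6 were not called, with log2 differences between -0.25 and 0.21. Limma-voom called 3 of the 6 tested GH3 genes, where it called 21.9% of all genes.

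Other genes of the auxin pathway were counted by list, and a list need not hold every gene of its family. The ARF list held ARF1 to ARF11 and ARF16 to ARF19. None of 6 TIR1/AFB receptors, 15 listed ARF factors and 5 TOPLESS co-repressors was called with GR24 4DO at 2 h or 4 h by limma or by limma-voom. Over all genes limma called 1.3% at 2 h and 8.93% at 4 h. By unadjusted p under 0.05 there were 0, 2 and 1 in these lists at 2 h, and 2, 1 and 2 at 4 h. Of all genes 18.3% passed that limit at 2 h and 24.1% at 4 h. In solvent from 0 h to 2 h, 1 receptor rose (TIR1, 0.33, adjusted p = 0.00392), as did 4 ARF factors and 2 co-repressors, TPR3 (0.49, adjusted p = 0.000138) and TPR1 (0.32, adjusted p = 0.000632). The ARF factors were ARF6 (0.44, adjusted p = 0.00782), ARF5 (0.38, adjusted p = 0.0119), ARF3 (0.29, adjusted p = 0.0177) and ARF7 (0.38, adjusted p = 0.0402). ARF7 was not called without solvent 2 h replicate 2 (0.17) or 3 (0.178) or solvent 0 h replicate 1 (0.188). These counts stand beside 19% of all genes called higher, or 11.5% with median-of-ratios scaling. With the trend against gene length removed, an analysis added after the data were seen, TIR1 (0.0534), TPR1 (0.1), ARF6 (0.0581), ARF3 (0.203) and ARF7 (0.146) no longer passed, and ARF5 did not without solvent 0 h replicate 1 (0.0635). ARF3 and ARF7 also did not pass with quantile normalization (0.104 and 0.0627) or median-of-ratios scaling (0.138 and 0.0819), and ARF3, ARF6 and ARF7 did not with the closest pairs averaged (0.0927, 0.0689 and 0.224). ARF3 was likewise lost without solvent 0 h replicate 1 (0.058) or without solvent 2 h replicate 2 (0.0646) or 3 (0.0681). From 2 h to 4 h the auxin receptor AFB1 (-0.31, adjusted p = 0.012) and ARF2 (-0.25, adjusted p = 0.0367) were lower, and ARF2 was not called when any 1 of solvent 2 h replicates 2 and 3 or of the 3 solvent 4 h libraries was left out (adjusted p = 0.059 to 0.128). With the length trend removed the ARF2 difference was -0.10 (adjusted p = 0.26), and with the closest pairs averaged neither ARF2 (0.273) nor AFB1 (0.0938) was called.

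None of 10 tested auxin synthesis genes was called with GR24 4DO at 2 h by limma or limma-voom, beside 1.3% and 1.25% of all genes. By unadjusted p under 0.05, 4 were lower at 2 h, beside 18.3% of all genes in either direction. At 4 h, 4 of the 10 fell and none rose, beside 4.23% of all genes lower and 4.69% higher. TAA1, which makes the precursor indole-3-pyruvate, went from 16.6 ± 0.972 to 12.7 ± 0.907 RPKM (SD, n = 3), -0.37 (adjusted p = 0.00692). Of the YUCCA enzymes, which turn this precursor into auxin, YUC6 (-0.43, adjusted p = 0.00204), YUC3 (-0.45, adjusted p = 0.00685) and YUC5 (-0.43, adjusted p = 0.00962) fell. With the closest pairs averaged, YUC6 (0.0612), YUC3 (0.0625) and YUC5 (0.091) were not called, nor was YUC5 without solvent 4 h replicate 3 (0.0596). In solvent, 4 synthesis genes fell from 0 h to 2 h, led by YUC8 (-0.45, adjusted p = 0.000696) and CYP79B2 (-0.25, adjusted p = 0.00194). Over all genes 9.66% were lower, or 13.2% with quantile normalization and 13.6% with median-of-ratios scaling. Among these 4 calls, that for TAR2 ended in 9 of 18 alternatives and that for CYP79B3 in 7 of 18. From 2 h to 4 h CYP79B2 rose (0.28, adjusted p = 0.00116) and 3 fell, led by YUC5 (-0.64, adjusted p = 0.00022). Over all genes 11.8% were higher and 9.5% lower. The call for YUC2, also lower, ended in 4 of 17 alternatives.

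None of 9 other tested genes of auxin inactivation and release was called with GR24 4DO at 2 h by limma or limma-voom. By unadjusted p under 0.05, 3 were higher at 2 h, beside 18.3% of all genes in either direction. At 4 h, 3 of the 9 rose and none fell, beside 4.69% of all genes higher and 4.23% lower. AT1G14130, which RefSeq names as an oxygenase dependent on oxoglutarate and iron, measured 7.55, 8.4 and 7.4 RPKM in solvent and 14.2, 13.2 and 12.4 RPKM with GR24 4DO at 4 h. It was higher in all 3 treated libraries, with a log2 difference of 0.70 (SE 0.07, adjusted p = 7.33e-06). UGT74D1, a glycosyltransferase that acts on auxin, was at 0.49 (adjusted p = 0.00178). IAR3, which frees auxin from an amino acid conjugate, was at 0.39 (adjusted p = 0.0172), and was not called when any 1 of solvent 4 h replicates 1 and 3 or GR24 4DO 4 h replicates 1 and 2 was left out (adjusted p = 0.0768 to 0.0932), nor with the closest pairs averaged (0.296). In solvent from 0 h to 2 h ILL6, another hydrolase of such conjugates, rose (0.59, adjusted p = 8.28e-05) and AT1G14120 fell (-0.31, adjusted p = 0.0129). From 2 h to 4 h AT1G14120 rose (0.68, adjusted p = 3.91e-05), while AT1G14130 (-0.42, adjusted p = 0.000441) and ILL3 (-0.37, adjusted p = 0.0136) fell, the last not called without solvent 4 h replicate 1 (0.0558) or 3 (0.0604). None of 4 listed GH3 genes outside the 7 (GH3.9, DFL2, JAR1 and PBS3) was called with GR24 4DO by limma at either time. By unadjusted p under 0.05 there were 0 at 2 h and 3 at 4 h, beside 18.3% and 24.1% of all genes. Limma-voom called 2 of them at 4 h, beside 9.18% of all genes. Of these 4 genes, DFL2 and GH3.9 fell in both solvent intervals, beside 9.66% and 9.5% of all genes lower. The fall was largest in DFL2 from 2 h to 4 h (-0.83, adjusted p = 3.3e-07). In that interval GH3.9 was not called without solvent 2 h replicate 2 (0.116) or 3 (0.0923), nor without any 1 of the 3 solvent 4 h libraries (0.0618 to 0.0973). With the closest pairs averaged, the calls for AT1G14120 (0.053) and DFL2 (0.0572) from 0 h to 2 h and those for ILL3 (0.114) and GH3.9 (0.201) from 2 h to 4 h ended.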

How the data were processed

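RNA was sequenced from whole seedlings in 15 libraries, 3 in each of 5 groups taken from the sample titles. The deposited table held RPKM values, which the authors made from reads counted per gene. Per the submitters' processing notes, STAR, featureCounts and DESeq were used with TAIR10; versions, strand and the treatment of reads with several matches are not stated in those notes, so near-identical genes may share or lose reads. The 1 row without a gene name was left out. All 347846 values above 0 gave whole reads, within 0.02 reads, for 1 length per gene and 1 total per library, and these totals are the depths; floors of 3 reads cover counting error only.

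Genes with at least 1 RPKM in 3 libraries (19155) were fitted in limma 3.58.1 (R 4.3.3) on log2(RPKM + 1), in 1 fit of all libraries by group with a variance trend. A gene was called at an adjusted p (Benjamini-Hochberg) below 0.05. The plan named edgeR for raw counts, which the table did not hold. The script was tested on simulated data. Promoter windows were read from TAIR10.1 by its own RefSeq annotation, matched by gene identifier for all 36 members.

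Residuals of same-numbered libraries, treated against solvent, correlated at 0.179, 0.133 and 0.101 at 2 h. Differently numbered libraries were not set beside them, so whether the numbers mark pairs is not known. At 4 h the values were -0.183, 0.491 and 0.407, and both solvent comparisons had a pair below 0.1. Chi-square per degree of freedom between replicates was 1.13, 1.74 and 1.87 in the 3 close pairs and 3.82 to 19.2 in the others.

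Alternatives were quantile and median-of-ratios scaling, a replicate block, a pseudocount of 0.1, no variance trend, a fit of the compared groups alone, a filter at 5 RPKM or none, limma-voom on recovered reads, close pairs averaged and each library left out; 3 more were added after the data were seen. The members and gene lists were chosen with earlier results of these data known. Library values are given for members called with GR24 4DO, for the 6 highest and 6 lowest called members in each solvent comparison, and for the most abundant 3 Aux/IAA genes and 1 GH3 gene. Of other lists the plan was to name up to 3 called genes per comparison, and in some comparisons more are named.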

Additional observations from a re-analysis of the deposited data

Results flagged for a closer look

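AT1G14130, an oxygenase gene of the auxin inactivation list, responded differently to GR24 4DO at the 2 times. Its log2 difference between GR24 4DO and solvent was 0.16 (adjusted p = 0.248) at 2 h and 0.70 (adjusted p = 7.33e-06) at 4 h. The difference of these responses was 0.543 (SE 0.10, adjusted p = 0.00774). It measured 10.2, 11.2 and 11 RPKM in solvent and 11.8, 11.8 and 12.8 RPKM with GR24 4DO at 2 h. Every treated library was higher than every solvent library at 2 h and again at 4 h, as in 19.3% and 17.5% of all genes. The call held in 23 of 24 alternatives and ended with the closest library pairs averaged (adjusted p = 0.191). No Aux/IAA or GH3 gene met a criterion for a closer look, and groups of 3 libraries are too small for a search for single outlying libraries.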

How the results depend on the processing

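No called member changed direction under any alternative run. For GR24 4DO at 2 h, the Aux/IAA count of 1 became 2 with quantile normalization (IAA3 was added), 0 with the filter at 5 RPKM, which removes IAA29, 0 with only the compared groups, 0 with the closest pairs averaged and 3 with the replicate block. At 4 h the 5 Aux/IAA calls became 9 with the replicate block (1 higher, 8 lower) and 3 with the closest pairs averaged, and ranged from 3 to 5 with 1 library left out. The 4 GH3 calls at 4 h became 2 with the closest pairs averaged and ranged from 2 to 4 with 1 library left out. For the difference of responses, the Aux/IAA count ranged from 0 to 1. In solvent from 0 h to 2 h the 10 Aux/IAA calls became 6 with only the compared groups and ranged from 5 to 10 with 1 library left out. From 2 h to 4 h the 2 GH3 calls became 1 with no filter, 1 with the closest pairs averaged and 3 with limma-voom. They ranged from 1 to 2 with 1 library left out. Causes of these shifts were not tested, except that averaging pairs and leaving out a library reduce the number of samples. Whether the replicate numbers pair the libraries is not known for any comparison, so every count with the replicate block rests on pairs that were not shown. IAA6, IAA15, IAA20 and IAA34 did not pass the filter and were not tested in the main analysis.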

Other observations

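When genes with 5 reads in 3 libraries were let in, limma-voom on the recovered reads called none of IAA6, IAA20 and IAA34 in any comparison, and the lowest adjusted p was 0.116, for IAA20 in solvent from 0 h to 2 h.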
